A study of Mus musculus with 4 samples.

Results

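The 32 genes described here encode the proteins of basement membranes and the receptors that hold cells to them. They comprise the 6 collagen IV chains (Col4a1 to Col4a6), the 2 multiplexins Col15a1 and Col18a1, 5 laminin alpha chains, 3 beta chains and 2 gamma chains, the nidogens Nid1 and Nid2, and the proteoglycans Hspg2 (perlecan) and Agrn (agrin). To these were added the matricellular and linker proteins Sparc, Fbln1, Fbln2 and Tinagl1, and the receptors Dag1 (dystroglycan), Itga1, Itga3, Itga6, Itga7 and Itgb4. Members were taken by gene symbol, and all 32 had a row among the 16305 genes of the tables. The cells were sorted as cancer-associated fibroblasts, the connective tissue cells of a tumour, from 4 untreated tumours of the line named APTKA, grown orthotopically in the colon of female C57BL6J mice. Each tumour filled 1 plate of 384 wells, 1 sorted cell to a well, and was sequenced by SORT-seq, which counts the 3′ ends of transcripts with molecular barcodes. All 4 tumours belong to 1 untreated group, so every comparison below is between kinds of cells within those tumours; the labels do not say which mouse each tumour came from.

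Basement membranes are thin sheets of matrix that lie under epithelia and around vessels, muscle cells and nerves. Laminins, each a trimer of an alpha, a beta and a gamma chain, and collagen IV, a trimer that assembles into a network, form the layers of the sheet, and nidogen and perlecan link them. Most basement membranes hold collagen IV made from Col4a1 and Col4a2, while the products of Col4a5 and Col4a6 join in a rarer trimer, known among other places from muscle. In the gut, fibroblasts, pericytes and muscle cells all contribute such proteins.

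Wells were kept with at least 1000 transcripts other than spike-ins and at most 30% mitochondrial transcripts, which left 43, 250, 243 and 204 wells in tumours 1 to 4. Tumour 1 stood apart: 44% of its plate's counts were spike-ins, against 5.54% to 8.59% on the other plates, 87 of its 130 wells with enough transcripts failed the mitochondrial limit (5 to 14 elsewhere), and its kept wells had a median of 14.4% mitochondrial transcripts (5.25% to 6.14% elsewhere) and of 5552 transcripts (8108 to 9474 elsewhere). Groups were named "-like" from fixed marker lists that hold none of the 32 genes. This gave 556 fibroblast-like wells, 27 telocyte-like wells (Bmp5, Bmp7, Sox6, Foxl1, F3, Frzb), 33 pericyte-like wells (Rgs5, Notch3, Kcnj8 and others), 38 smooth-muscle-like wells (Myh11, Des, Actg2 and others) and 17 Cajal-like wells (Kit, Ano1, Etv1). Telocytes are fibroblast-family cells just beneath the gut epithelium, and pericytes are the mural cells of small vessels. The median depth was 9796 transcripts in fibroblast-like wells, 11488 in telocyte-like, 11652 in pericyte-like and 3650 in smooth-muscle-like wells. All groups still carried fibroblast transcripts: the 9 fibroblast markers summed to 444 to 630 per 10000 in fibroblast-like sums, 313 to 485 in telocyte-like, 186 to 285 in pericyte-like and 117 to 169 in smooth-muscle-like sums. Their part in the differences below was not tested. Of the telocyte-like wells 23 of 27 lay within a factor of 2 of the minimum marker level (10 per 10000), and 24 further wells lay between 5 and 10.

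Levels are transcripts per 10000 in the sum of all wells of a group in a tumour; because 1 end per molecule is counted, they do not scale with gene length. Tumour 1 had too few telocyte-like and pericyte-like wells for a sum (2 each), so those groups have 3 tumours. The fibroblast-like and smooth-muscle-like groups have 4 tumours and the Cajal-like group 2 (tumours 3 and 4). Differences are log2 fold changes ± SE from edgeR's quasi-likelihood test on the sums with tumour as a block, and a gene rose or fell where the Benjamini-Hochberg adjusted p over 3513 tested genes was under 0.05. Of the 32 members 22 passed the filter on low counts and 10 did not (Col4a3, Col4a4, Col4a6, Lama3, Lamb3, Lamc3, Nid2, Itga3, Itga6 and Itgb4).

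In telocyte-like wells 4 of the 22 tested members rose (Col4a5, Lama5, Itga1 and Lamb1), where 4.13% of all tested genes rose, and 3 fell (Fbln1, Fbln2 and Lamb2), where 4.5% fell. Pericyte-like wells had 7 members higher than fibroblast-like wells (Itga7, Tinagl1, Agrn, Itga1, Col18a1, Col4a1 and Col4a2; background 5.72%) and 4 lower (Fbln2, Lama1, Fbln1 and Hspg2; background 9.17%). In smooth-muscle-like wells 2 rose (Tinagl1 and Itga7; background 7.71%) and 5 fell (Lama1, Fbln1, Fbln2, Sparc and Lama2; background 11.6%). Against pericyte-like wells, smooth-muscle-like wells had 0 members higher with edgeR (background 5.66%; 1, Hspg2, at an unadjusted p under 0.05, and 0 with DESeq2) and 5 lower (Col18a1, Sparc, Nid1, Col4a1 and Col4a2; background 5.89%). The median log2 difference of the tested members was 0.28, 0.15, -0.57 and -0.99 in these 4 comparisons, against -0.04, -0.04, -0.13 and -0.06 over all tested genes. With Lama1 at its bound in smooth-muscle-like wells the median was still -0.57. The 3 comparisons with fibroblast-like wells share those wells. Counts, medians and background cover only genes that passed the filter on low counts. Fibroblast-like sums held Itga7, Agrn, Tinagl1 and Col4a5 at no more than 0.0617, 0.251, 0.333 and 0.279. Col4a6, at up to 0.962 in telocyte-like sums, missed the filter. Itga7, Agrn, Tinagl1 and Col4a5 were thus tested through groups where they were high, so the filter partly fixed their direction. With no filter on low counts their calls as higher were kept.

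**Figure D1:**
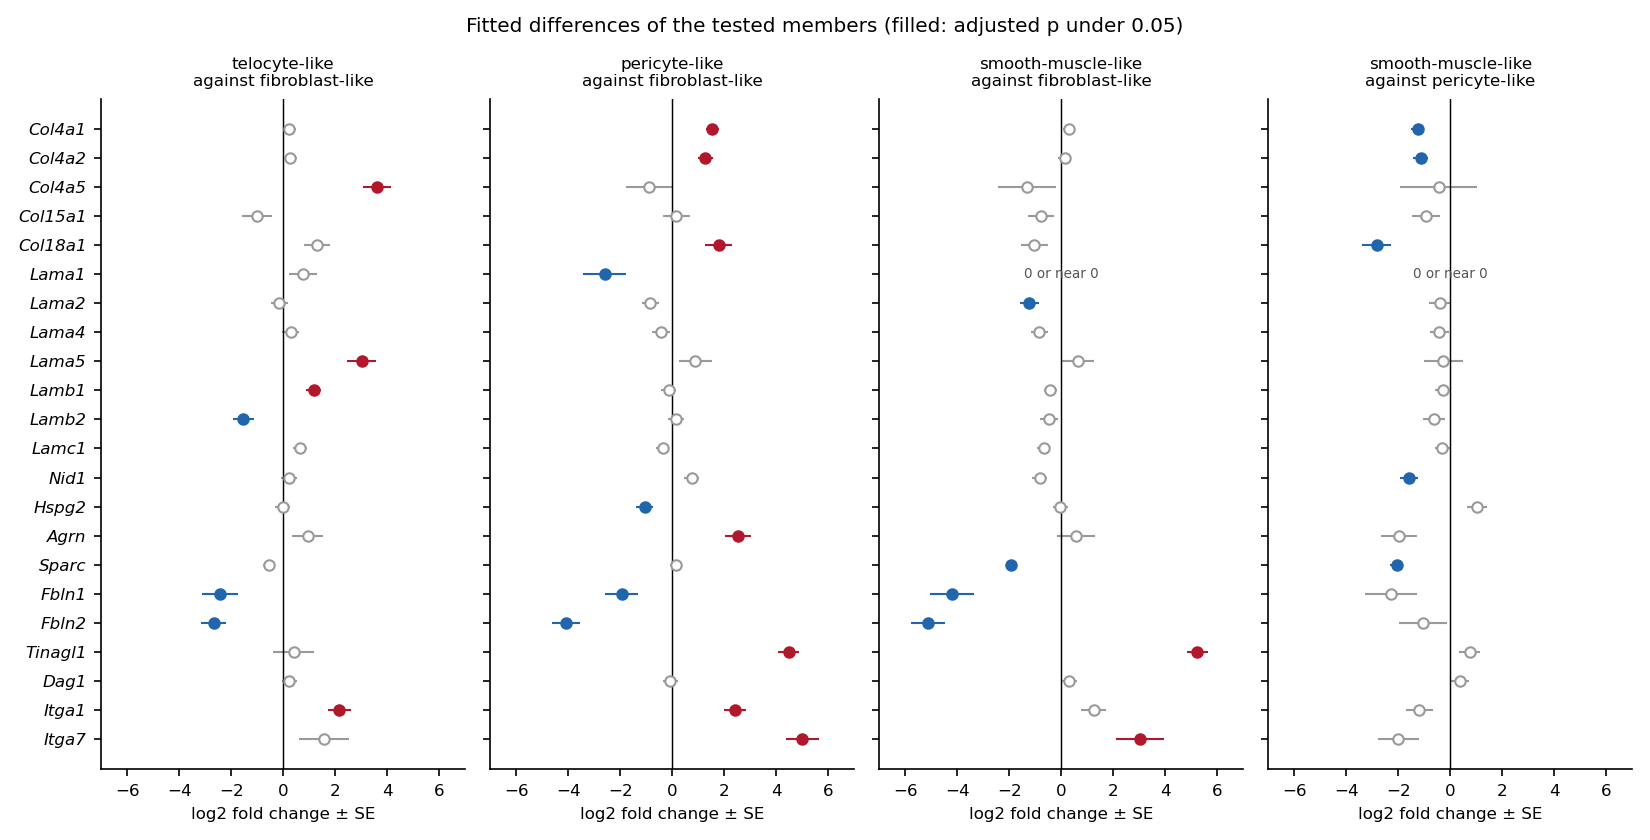
Log2 fold change ± SE (horizontal axis) of the 22 tested members in the 4 comparisons, fitted with edgeR on tumour sums; filled points passed an adjusted p of 0.05, red for higher and blue for lower. Pericyte-like wells have the most filled points on the right, 7, and smooth-muscle-like wells against pericyte-like wells have none there; Lama1 has no point in the panels with smooth-muscle-like wells, where it had 0 transcripts.

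Among the genes of the network itself, the main collagen IV pair was highest in pericyte-like wells. Col4a1 stood at 13.7, 12.4, 15.8 and 16.2 per 10000 in the fibroblast-like sums of tumours 1 to 4 and at 44.8, 45.7 and 58.7 in the pericyte-like sums of tumours 2 to 4. Each pericyte-like sum was thus above every fibroblast-like sum, with a log2 difference of 1.55 ± 0.26 (adjusted p = 0.000209). Col4a2, its partner, was at 10.7, 7.29, 10.2 and 9.99 in fibroblast-like and at 22.9, 23.1 and 32.1 in pericyte-like sums (1.28 ± 0.27, adjusted p = 0.00242; 0.0748 without tumour 4). Smooth-muscle-like sums held Col4a1 at 15, 28, 22.8 and 23.4. These values overlapped the fibroblast-like range, but were the higher within 4 of 4 tumours, without a call. All were below every pericyte-like value (against pericyte-like -1.26 ± 0.26, adjusted p = 0.0029). Col4a2, at 9.41, 16.6, 15.5 and 10.3 there, was likewise below every pericyte-like value (-1.14 ± 0.28, adjusted p = 0.011, lost without tumour 2 or tumour 4). Telocyte-like sums held Col4a1 at 14.1, 21.5 and 24, the last 2 above every fibroblast-like sum. They were higher within 3 of 3 tumours, without a call.

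Markers of endothelial cells moved with the pericyte-like group. In its sums 4 of the 7 endothelial markers were found (Emcn, Esam, Flt1 and Egfl7), at 2.02 to 3.84 per 10000 together, against 0.0416 to 0.247 in fibroblast-like sums. The other markers of the list, Pecam1, Cdh5 and Kdr, were at 0. In the 24 pericyte-like wells with any endothelial transcript Col4a1 stood at 51.9 per 10000, and in the 9 wells without one at 30.2, still above the highest fibroblast-like sum. Col4a2 was at 27.4 and 14.6 in the same wells, Nid1 at 12.9 and 5.71, and Col18a1 at 13.8 and 5.71. In the 9 wells Col4a2, Agrn (1.06), Tinagl1 (4.91) and Itga7 (0.795) were also above every fibroblast-like sum, while Nid1 and Col18a1 lay within the fibroblast-like range. Itga1 was at 3.72 in the 24 wells and at 0.398 in the 9, below its lowest fibroblast-like sum of 0.403. Hspg2, called lower in the group, was at 0.731 in the 24 wells and at 1.59 in the 9, close to the fibroblast-like sums of 1.71 to 1.83. Fbln1, also called lower, was at 0.135 and 8.27. Of its 62 transcripts in the 9 wells, 53 came from 1 well of tumour 3. The wells without endothelial transcripts were shallower (median 5098 transcripts, against 12165). Immune markers were at 0 in pericyte-like, telocyte-like and smooth-muscle-like sums.

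Col4a1 outnumbered Col4a2 in every sum. There were 1.28 to 1.70 Col4a1 transcripts for each Col4a2 transcript in the 4 fibroblast-like sums, 1.83 to 1.98 in the 3 pericyte-like, 1.37 to 1.77 in the 3 telocyte-like, 1.47 to 2.27 in the 4 smooth-muscle-like and 2.25 to 3.89 in the 2 Cajal-like sums. The pericyte-like ratios lie above every fibroblast-like ratio; the difference was not tested. Both chains were found in 486 of 556 fibroblast-like wells, 32 of 33 pericyte-like wells, all 27 telocyte-like wells, 31 of 38 smooth-muscle-like wells and 10 of 17 Cajal-like wells. Over all 740 kept wells, 51 held Col4a1 alone, 27 held Col4a2 alone and 53 held neither, of which 24 were red-cell-rich.

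**Figure D2:**
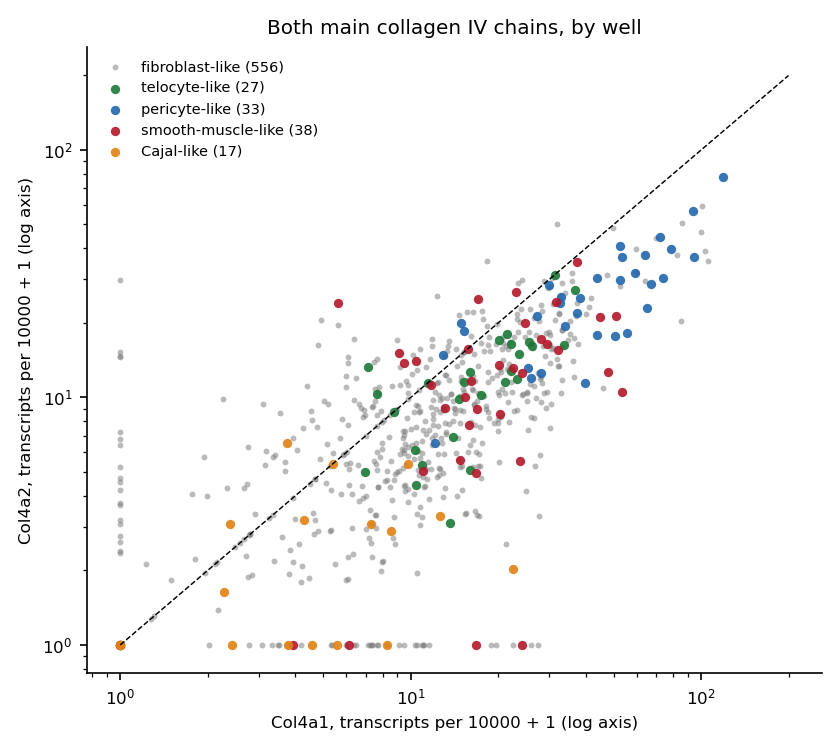
Each point is a well of 1 of the 5 groups; axes give Col4a1 and Col4a2 in transcripts per 10000 plus 1, both on log scales, and the dashed line marks equal levels. Most wells lie below the line, with more Col4a1 than Col4a2, and pericyte-like wells lie toward the upper right, where their summed levels are 44.8 to 58.7 and 22.9 to 32.1.

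The collagen IV genes lie head to head in pairs, which is why the stretches between their starts are shown. In the RefSeq windows (GRCm38.p6) Col4a1, on the minus strand of chromosome 8, starts at 11312826 and Col4a2, on the plus strand, at 11312805, so that their first exons overlap. The 30 bases around both starts, chr8:11312801-11312830 on the plus strand, hold 1 GC box, the letters GGGCGG on either strand, given in capitals.
Col4a1 and Col4a2: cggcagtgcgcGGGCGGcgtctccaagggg
Col4a5 and Col4a6 form the same arrangement on chromosome X, with starts 1343 bases apart (141474076 on the minus strand for Col4a6, 141475419 on the plus strand for Col4a5). The stretch of each window that lies before the annotated gene is chrX:141475169-141475369 (plus strand) for Col4a5 and chrX:141474096-141474326 (minus strand) for Col4a6. Capitals mark a CCAAT box in the former; the latter holds neither set of letters. The GC box in the window of each gene is not shown: that of Col4a5 lies past the end of its stretch, and that of Col4a6 runs across the end.
Col4a5: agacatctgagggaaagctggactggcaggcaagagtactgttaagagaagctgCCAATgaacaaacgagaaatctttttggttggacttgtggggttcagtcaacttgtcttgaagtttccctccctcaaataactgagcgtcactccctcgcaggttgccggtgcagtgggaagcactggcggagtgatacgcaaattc
Col4a6: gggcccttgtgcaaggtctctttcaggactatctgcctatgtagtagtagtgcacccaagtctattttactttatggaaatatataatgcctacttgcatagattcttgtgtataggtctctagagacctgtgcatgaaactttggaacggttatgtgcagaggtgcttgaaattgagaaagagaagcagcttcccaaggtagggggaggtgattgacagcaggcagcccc
Of the 22 members with a RefSeq window (250 bases before to 50 after a start), 16 held GGGCGG, as did 38.2% of 27025 genes. The letters CCAAT, which do not overlap the GC box, were in 8 of the 22 and in 41.1% of genes, on either strand. A CArG box, the motif of serum response factor, was in 1 of the 22 (Lama2) and in 1.81% of genes. A match of letters is no evidence that a factor binds there.

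The second head-to-head pair was higher in telocyte-like and Cajal-like sums than in the other groups. Col4a5 stood at 0.208, 0.0755, 0.279 and 0.123 per 10000 in fibroblast-like sums and at 2.07, 2.22 and 1.68 in telocyte-like sums, with no overlap (3.62 ± 0.54, adjusted p = 0.000147). It was at 0 in 2 of 3 pericyte-like and 3 of 4 smooth-muscle-like sums, and at 1.13 and 2.04 in the 2 Cajal-like sums, which were not compared. Col4a6 missed the filter on low counts. Its levels were 0, 0.0036, 0.0855 and 0.0308 in fibroblast-like and 0.691, 0.962 and 0.841 in telocyte-like sums. The Cajal-like sums held 0.563 and 0.292, from only 2 and 1 transcripts, and the highest smooth-muscle-like sum held 0.247, from 2. In the 6 alternative fits where Col4a6 was tested, its log2 difference was 4.36 to 6.20 (adjusted p from 1.01e-08 to 0.00684). Col4a3 and Col4a4, the chains of the kidney filter, were near absent, with 12 and 43 transcripts in all kept wells, and no well held both.

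Telocyte-like wells were not uniform in these genes. A clustering that left out all 32 members placed 16 of the 27 telocyte-like wells in a cluster that itself carried the telocyte markers and 11 in fibroblast clusters. The 16 wells held 67 of 70 Col4a5 transcripts and all 31 Col4a6 transcripts. The other 11 wells held 74 of 88 Itga1 transcripts and 94 of 125 Lama5 transcripts. Lama4 was at 7.64 per 10000 in the 16 wells and 1.81 in the 11, while Lamb1 (14.8 and 9.15) and Lamc1 (7.14 and 8.61) were found in nearly all wells of both kinds. These are counts over wells of several tumours and carry no test.

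The multiplexins are collagens with heparan or chondroitin sulphate chains; a fragment of Col18a1 is endostatin. Col18a1 was at 10.1, 1.4, 4.85 and 2.46 per 10000 in fibroblast-like sums, the shallow tumour 1 being the highest, and at 10.9, 8.86 and 20.5 in pericyte-like sums (1.80 ± 0.51, adjusted p = 0.0211). It was higher in 3 of 3 tumours, but the call was lost without tumour 2 or tumour 4, with DESeq2 and with no replicate block (adjusted p up to 0.252). Telocyte-like sums held 9.34, 8.82 and 9.18, above the fibroblast-like sums of tumours 2 to 4 and below that of tumour 1 (1.31 ± 0.51, adjusted p = 0.138). In smooth-muscle-like sums it was at 0.865, 5.99, 2.28 and 2.26, below every pericyte-like sum (-2.83 ± 0.55, adjusted p = 0.002; 0.0643 with a smooth muscle minimum of 10). Col15a1 was at 4.85 to 7.46 in fibroblast-like, 7.14 to 8.55 in pericyte-like, 1.36 to 6.03 in smooth-muscle-like and 0.374 to 7.06 in telocyte-like sums, and passed in no comparison.

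Laminin transcripts of fibroblast-like sums came mostly from Lama2, Lama4, Lamb1 and Lamc1. Lama4, the alpha chain of vessel walls and stroma, made up 35.6% to 62% of alpha-chain transcripts in fibroblast-like sums, and Lama2, the alpha chain of muscle, 28.6% to 36.7%. Lama3 and Lamb3, parts of the epithelial laminin that anchors the epidermis, had 4 and 1 transcripts in all kept wells. Lamc1 was the main gamma chain, with 3862 transcripts against 42 of Lamc3. Of the beta chains, Lamb1 took 75.9% to 84.1% in fibroblast-like sums and Lamb2 the rest.

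**Figure D3:**
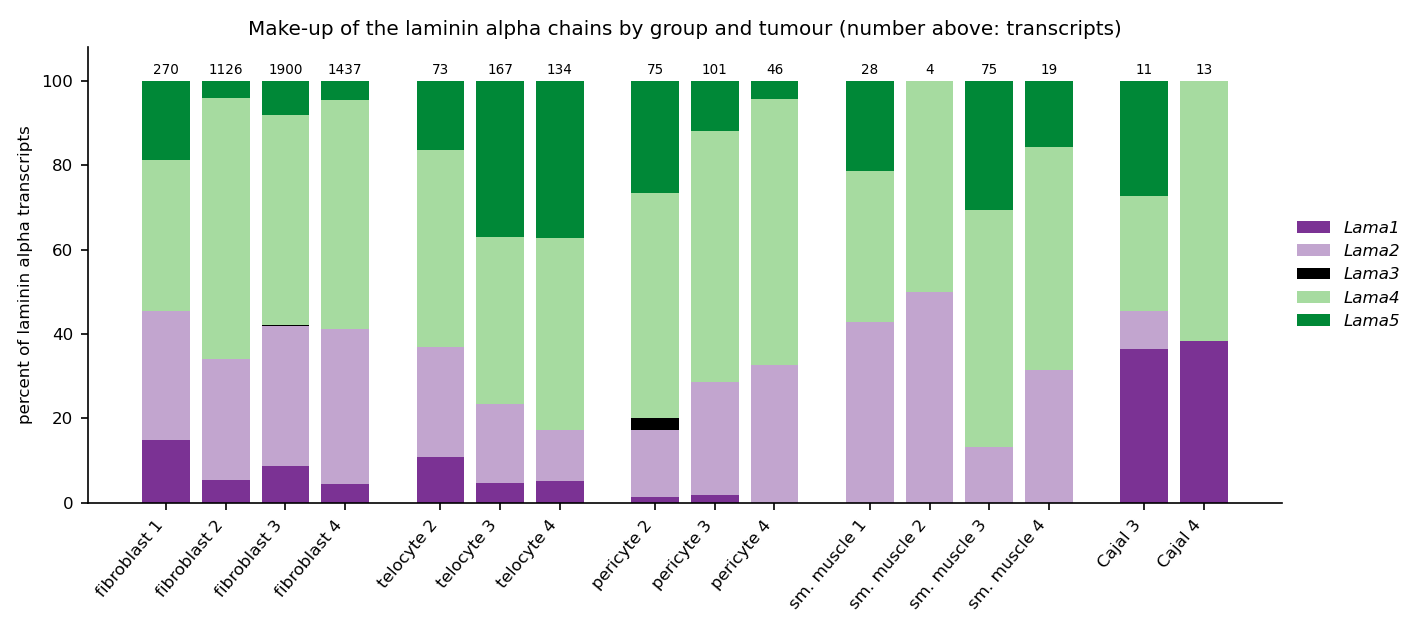
Bars give the percent of laminin alpha transcripts that come from each alpha chain gene in each sum of wells, by group and tumour, with the number of transcripts above each bar. The dark green share of Lama5 is 16.4% to 37.3% in telocyte-like and 4.0% to 18.9% in fibroblast-like sums, with pericyte-like and smooth-muscle-like shares reaching 26.7% and 30.7%, and the smooth-muscle-like bars rest on as few as 4 transcripts.

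In telocyte-like wells 3 laminin chains differed from fibroblast-like wells. Lama5, the alpha chain typical of the membrane under gut epithelium, was at 2.13, 0.162, 0.685 and 0.287 per 10000 in fibroblast-like sums and at 1.38, 4.60 and 4.68 in telocyte-like sums (3.03 ± 0.56, adjusted p = 0.00111). Within each of tumours 2 to 4 the telocyte-like value was the higher, although the fibroblast-like sum of tumour 1 exceeded the telocyte-like sum of tumour 2. With clusters in place of the marker rule the difference was 1.45 (adjusted p = 0.125), and 94 of the 125 Lama5 transcripts of the 27 telocyte-like wells came from the 11 that lay in fibroblast-like clusters. The share of Lama5 among alpha chains in telocyte-like sums overlapped that in pericyte-like (4.35% to 26.7%) and smooth-muscle-like sums (0% to 30.7%). Lamb1 rose as well, from 9.45, 3.14, 5.43 and 4.68 to 9.45, 14.9 and 9.83 (1.17 ± 0.27, adjusted p = 0.00813), but the call was lost without tumour 3, without tumour 4, with no replicate block and with no filter on low counts (adjusted p up to 0.131 over the alternatives). Lamb2 fell, from 1.79, 0.770, 1.71 and 1.49 to 0.230, 0.814 and 0.467 (-1.54 ± 0.41, adjusted p = 0.0196). Lamb2 thus made up 2.38% to 5.19% of beta-chain transcripts in telocyte-like sums and 15.9% to 24.1% in fibroblast-like sums. The call of Lamb2 was lost without tumour 2 or tumour 4.

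Lama1, the alpha chain of the early embryo, was found in 120 of 556 fibroblast-like wells but in no smooth-muscle-like well. Its levels were 1.67, 0.219, 0.752 and 0.291 per 10000 in fibroblast-like sums, from 334 transcripts. With 0 transcripts in the 4 smooth-muscle-like sums and a floor of 3 counts over the group, it was at least 3.58-fold lower there (adjusted p = 0.00251). The pericyte-like sums held 3 transcripts, a level 6.39-fold lower (95% exact counting interval 2.17 to 31.1; adjusted p = 0.0396), and this call was lost without tumour 2, 3 or 4 and with DESeq2. Telocyte-like sums held 0.921, 0.592 and 0.654, inside the fibroblast-like range. Lama2 fell in smooth-muscle-like wells, from 3.45, 1.16, 2.83 and 2.32 to 1.48, 1.33, 0.948 and 1.51 (-1.22 ± 0.35, adjusted p = 0.0183), a call that was lost without tumour 1 or tumour 3 and with a smooth muscle minimum of 10. Lama4 and Lamc1 passed in no comparison; Lamc1 ranged from 3.01 to 9.05 over all telocyte-like, pericyte-like, smooth-muscle-like and fibroblast-like sums.

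Of the linkers and proteoglycans, Nid1, which joins laminin to collagen IV, was at 5.13, 5.53, 7.6 and 7.22 per 10000 in fibroblast-like and 10.9, 11.7 and 12.9 in pericyte-like sums. The groups did not overlap, yet the difference missed the threshold (0.75 ± 0.29, adjusted p = 0.0984). Smooth-muscle-like sums held 5.07, 3.99, 3.79 and 4.27, lower than pericyte-like sums (-1.58 ± 0.34, adjusted p = 0.00379; lost without tumour 2 and with a smooth muscle minimum of 10). Nid2, not tested, had no transcript in telocyte-like sums, which puts it at least 2.12-fold below its fibroblast-like level of 0.193 (145 transcripts over 4 sums). In pericyte-like sums Nid2 was at 0.417 to 0.843, above every fibroblast-like sum (0.123 to 0.333). All 33 pericyte-like wells held 24 Nid2 transcripts, in 11 wells. Agrn, a heparan sulphate proteoglycan that binds dystroglycan, was at 0.125, 0.169, 0.225 and 0.251 in fibroblast-like and 1.94, 0.904 and 1.59 in pericyte-like sums (2.54 ± 0.49, adjusted p = 0.000933); without tumour 2 its adjusted p was 0.0966. Hspg2 went the other way, from 1.83, 1.71, 1.78 and 1.76 to 0.831, 1.11 and 0.750 (-1.06 ± 0.31, adjusted p = 0.0255). Its call was lost without any of tumours 2, 3 or 4 and without wells that met several rules. The fitted difference ranged from -1.32 to -0.91.

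**Figure D4:**
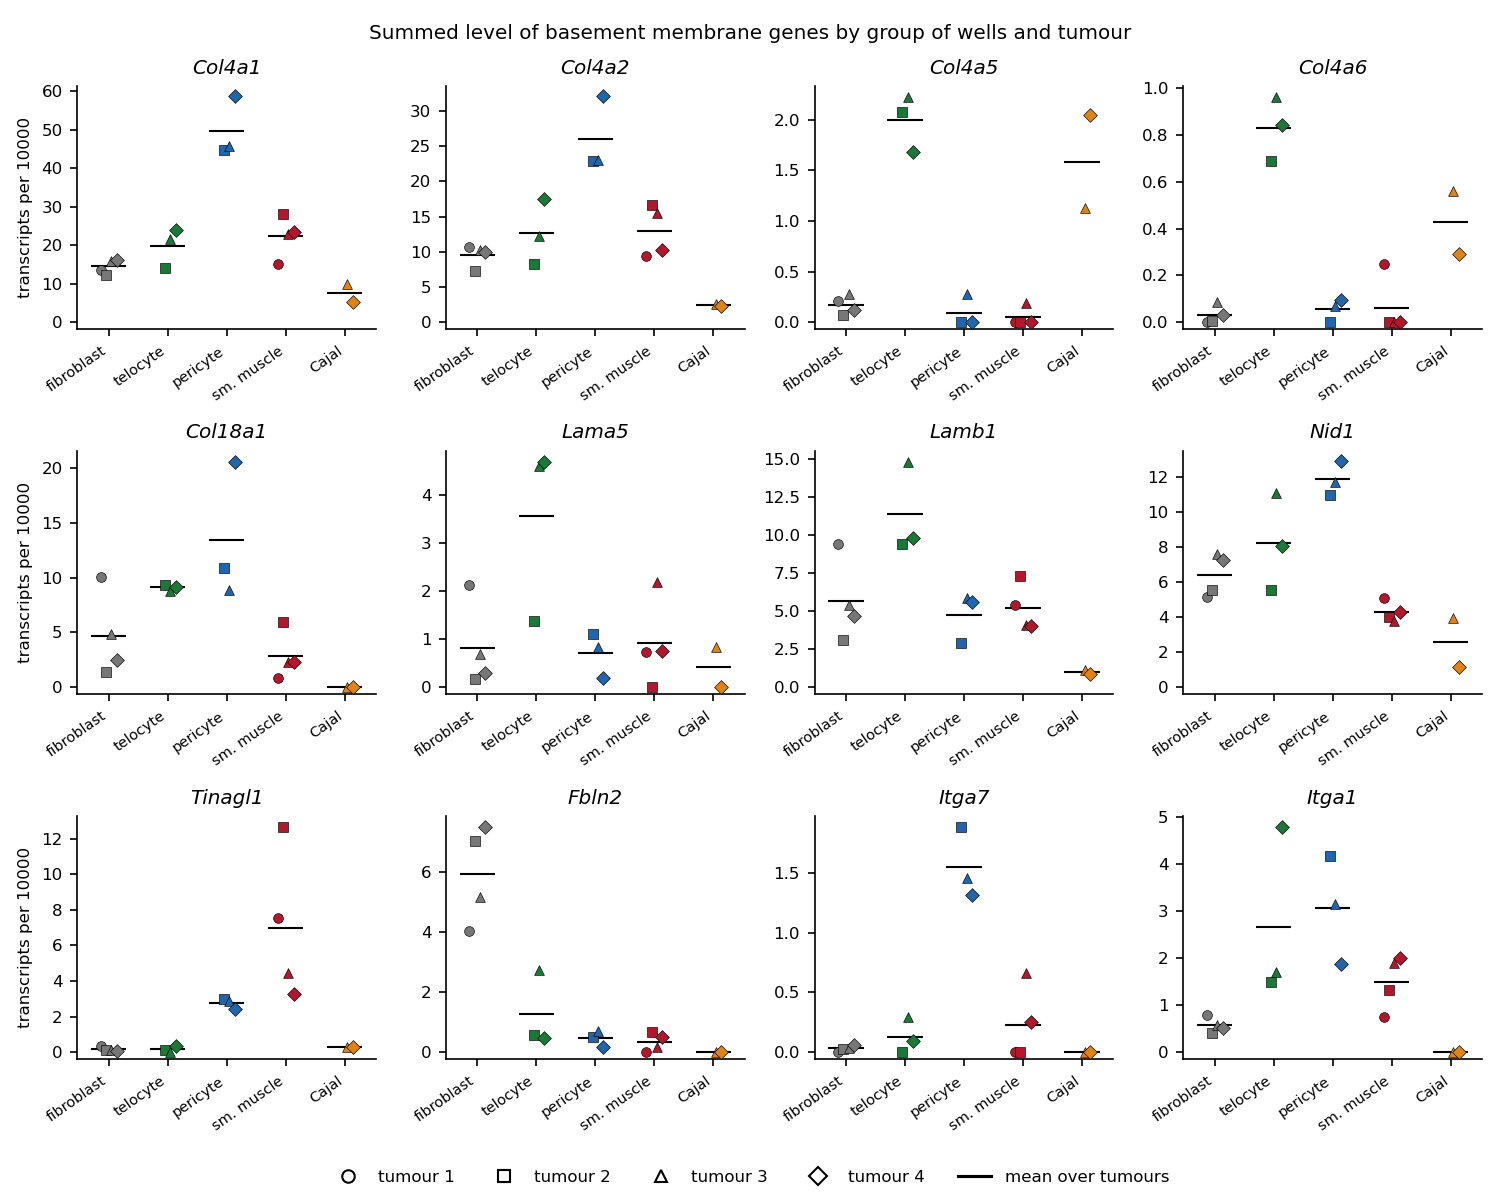
Each panel gives 1 gene's level (transcripts per 10000, linear axis from 0) in the sum of wells of each group, with 1 symbol per tumour and a bar at the mean. Col4a1, Col4a2 and Itga7 are highest in pericyte-like sums, Col4a5 and Col4a6 in telocyte-like and Cajal-like sums, Tinagl1 in smooth-muscle-like sums and Fbln2 in fibroblast-like sums. Col4a6 in Cajal-like sums rests on 3 transcripts.

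Among the matricellular and linker proteins, Tinagl1 and Fbln2 differed between the groups in opposite directions. Tinagl1, a secreted protein related to cathepsins that binds laminin and integrins, was at 0.333, 0.126, 0.117 and 0.0617 per 10000 in fibroblast-like sums. It was at 2.99, 2.85 and 2.44 in pericyte-like sums (4.49 ± 0.40, adjusted p = 1.68e-07) and at 7.55, 12.7, 4.46 and 3.27 in smooth-muscle-like sums (5.25 ± 0.39, adjusted p = 3.09e-08). All mural and muscle sums were above all fibroblast-like sums. Against pericyte-like wells the smooth-muscle-like difference was not called. Fbln2, which bridges basement membrane and elastic fibres, was highest in fibroblast-like wells: 4.03, 7.04, 5.17 and 7.50 in fibroblast-like sums, 0.575, 2.74 and 0.467 in telocyte-like, 0.498, 0.695 and 0.187 in pericyte-like and 0, 0.665, 0.189 and 0.502 in smooth-muscle-like sums. Its log2 differences from fibroblast-like wells were -2.68 ± 0.50, -4.08 ± 0.54 and -5.13 ± 0.65 (adjusted p = 0.00142, 2.62e-05 and 1.43e-05). The telocyte-like call was lost without tumour 2 (adjusted p = 0.0627).

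Fbln1, the other fibulin, was at 4.53, 3.11, 4.34 and 4.59 per 10000 in fibroblast-like sums. In smooth-muscle-like sums it stood at 0.124, 0.665, 0.189 and 0.753, below all of those (-4.21 ± 0.84, adjusted p = 0.00121). Telocyte-like sums held 1.5, 0.666 and 0.561 (-2.44 ± 0.68, adjusted p = 0.0288), a call lost in 5 of 13 alternatives: without tumour 2, with DESeq2, with no replicate block, with at least 2000 transcripts per well and with a telocyte minimum of 5. In pericyte-like sums it was at 0.277, 4.26 and 0.0937, and 53 of the group's 67 transcripts came from 1 well of tumour 3. The pericyte-like difference was -1.94 ± 0.64 (adjusted p = 0.0453) and moved to -4.55 without tumour 3. The call was lost in 8 of 13 alternatives: without tumour 1, 2 or 4, with DESeq2, whole barcode counts, no replicate block or at least 2000 transcripts per well, and without wells that met several rules. Sparc, a collagen-binding glycoprotein, was by far the most abundant member in counts, with 96259 transcripts in all kept wells. It was at 70.1, 115, 105 and 125 in fibroblast-like, 129, 127 and 176 in pericyte-like and 72.4, 107 and 84.5 in telocyte-like sums. In smooth-muscle-like sums it was at 19.8, 37.3, 40.7 and 38, below every other sum of those groups (against fibroblast-like -1.92 ± 0.22, adjusted p = 2.81e-06; against pericyte-like -2.06 ± 0.24, adjusted p = 1.22e-05).

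Of the integrin receptors, Itga7 was called higher in pericyte-like and smooth-muscle-like wells, and Itga1 in pericyte-like and telocyte-like wells. Within pericyte-like wells Itga1 was at 3.72 per 10000 in those with an endothelial transcript and at 0.398 in the 9 without one. Itga7, a laminin receptor of muscle, was at 0, 0.0288, 0.036 and 0.0617 per 10000 in fibroblast-like sums and at 1.88, 1.46 and 1.31 in pericyte-like sums (5.01 ± 0.63, adjusted p = 2.08e-05). It was found in 24 of 33 pericyte-like wells and in 16 of 556 fibroblast-like wells. In smooth-muscle-like sums Itga7 stood at 0, 0, 0.663 and 0.251, from 8 transcripts of which 5 were in 1 well. The fitted difference was 3.02 ± 0.92 (adjusted p = 0.0265). The call was lost without tumour 2, without tumour 3 and with at least 10 wells per sum. Itga1, a receptor for collagen IV, was at 0.790, 0.403, 0.567 and 0.511 in fibroblast-like sums, 4.16, 3.14 and 1.87 in pericyte-like sums (2.43 ± 0.43, adjusted p = 0.000433) and 1.5, 1.7 and 4.78 in telocyte-like sums (2.16 ± 0.44, adjusted p = 0.00324). In telocyte-like wells 31 of its 88 transcripts came from 1 well of tumour 4; without that tumour the call was lost, and with clusters in place of the marker rule the difference was -0.10 (adjusted p = 0.957).

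The other receptors varied less or were rare. Dag1, the dystroglycan that binds laminin, agrin and perlecan, ranged from 1.46 to 3.52 per 10000 over the fibroblast-like, telocyte-like, pericyte-like and smooth-muscle-like sums and passed in no comparison. Itga6 and Itgb4, the pair of the epithelial hemidesmosome, had 38 and 47 transcripts in all kept wells, in 19 and 8 wells. Itga6 was at 0.277, 0.278 and 0.375 in the pericyte-like sums and at 0 to 0.0585 in the fibroblast-like sums, from 13 transcripts in 7 pericyte-like wells, and was not tested. Itga3 had 48 transcripts in 34 wells. Itgb1, the beta chain that pairs with all 4 integrin alpha chains of the list, is not a member and was looked at after its values were seen: 6.16 to 7.13 in fibroblast-like, 14.7 to 17.4 in pericyte-like (1.14 ± 0.25, adjusted p = 0.00339), 14 to 18.7 in smooth-muscle-like (1.13 ± 0.24, adjusted p = 0.0019) and 9.08 to 9.33 in telocyte-like sums.

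Other genes of the same matrix were read from 4 further lists. Among 18 other basement membrane proteins, of which 6 were tested, telocyte-like wells had 2 higher, the calcium-binding Smoc1 (log2 difference 2.98) and the collagen IV cross-linking peroxidase Pxdn (1.32), and 1 lower, Smoc2 (-3.59). Pericyte-like wells had Pxdn higher (1.22) and the fibulin Efemp1 lower (-3.94). Smooth-muscle-like wells had 3 higher than fibroblast-like wells, Frem2 of the Fraser complex (8.08), Smoc1 (2.20) and netrin-1, Ntn1 (1.97), and Efemp1 lower (-1.07). Frem2 had 64 transcripts in the smooth-muscle-like sums and 0 in the pericyte-like sums, where it was at least 38.1-fold lower. Against pericyte-like wells 4 of the 6 were higher in smooth-muscle-like wells and 1, Pxdn, lower (-1.75, named after its value was seen). The higher genes were Frem2, Ntn1 (4.06), Efemp1 (2.86) and Smoc1, with 51 transcripts against 2 (ratio 45.6, 95% exact counting interval 12 to 386).

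Of 24 other matrix receptors 17 were tested. Telocyte-like wells had 2 higher, the vitronectin receptor chains Itgb3 (1.69) and Itgav (1.28). Pericyte-like wells had 4 higher, among them the laminin receptor Bcam (4.22), Itga4 (3.10) and Itga8 (2.68), and 2 lower, among them Gpc3 with 1 transcript (ratio to the fibroblast-like level 15.8-fold lower, interval 2.82 to 628). Smooth-muscle-like wells had 7 higher than fibroblast-like wells, led by Itga8 (4.76), Bcam (2.94), Itga9 (2.61) and Itga4 (2.16), and 4 lower. Against pericyte-like wells 3 were higher, among them Itga9 (3.53) and Gpc3 (28 transcripts against 1, ratio 50, interval 8.27 to 2046), and 3 lower, among them Itgb5 (-2.52) and Sdc1 (-2.21).

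The dystrophin complex, which ties dystroglycan to the cytoskeleton, had 5 of 12 genes tested. Dystrophin itself, Dmd, rose in pericyte-like (2.12) and smooth-muscle-like wells (3.56), and dystrobrevin, Dtna, rose in smooth-muscle-like wells (6.31 against fibroblast-like wells), with 58 transcripts against 1 in pericyte-like wells (ratio 104, interval 17.9 to 4163). Of 7 metalloproteinases that cut basement membrane 5 were tested. Telocyte-like wells had Mmp10 higher (2.89), pericyte-like wells had Mmp2 lower (-2.65), and smooth-muscle-like wells had 4 lower than fibroblast-like wells: Mmp3 (-6.66), Mmp10 (-4.81), Mmp2 (-2.99) and Mmp14 (-1.27). Mmp14 was also lower than in pericyte-like wells (-1.37).

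Chain pairing was read well by well, since subunits of 1 trimer must meet in the same cell. Wells were thinned to 3000 transcripts, which kept 31, 197, 198 and 171 wells of tumours 1 to 4. Lamc1 was found in 66.7%, 68.5%, 71.8% and 69.3% of wells with Lamb1 and in 50%, 60.7%, 58.2% and 52.6% of wells without it. The difference had the same direction in 4 of 4 tumours, with a mean of 13.7 points ± 4.16 (SD, n = 4). Wells with Lama2 held Lamc1 more often by 15.1 points ± 7.38 and wells with Lama5 by 28 points ± 11.6, again in 4 of 4 tumours, although Lama5 was found in only 65 thinned wells. Thinned to 1000 transcripts, the Lama5 difference turned in 2 of 4 tumours (-29.3, 36.4, -4.47 and 34.6 points), from 35 wells with Lama5. For Lama4 the difference was 11 points ± 10.5 over all groups but -2.58 points ± 22.6 within fibroblast-like wells.

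Col4a2 was found in 81.6%, 83.2% and 84.2% of wells with Col4a1 in tumours 2 to 4 and in 61.1%, 38.7% and 42.1% of wells without it. In tumour 1 the order was the opposite, 76% with and 83.3% without, but only 6 thinned wells lacked Col4a1 there. Within fibroblast-like wells the mean difference for this pair was 14 points ± 34.7. By tumour it was -33.3 (5 wells without Col4a1), 20.2, 50.2 and 18.9 points. For Lamb2 and for Nid1 the difference in Lamc1 was 7.35 points ± 6.88 and 11.3 points ± 11, each with 1 tumour of 4 in the other direction. Within fibroblast-like wells both were below 0 in 2 of 4 tumours (-4.17 and -5.42 points for Lamb2, -4.07 and -5.04 for Nid1). Col4a6 was found in 5 of 43 thinned wells with Col4a5, and in 8 of the far more numerous wells without it. Averaged over tumours, the shares were 9.13% with Col4a5 and 1.86% without it, a difference of 7.27 points ± 7.13. Tumour 1, with 1 such well, had -3.33 points. Within fibroblast-like wells the mean difference was 1.24 points ± 2.82 (3 tumours). With all transcripts used the differences were larger for every one of these pairs but Lama5 and Lamc1.

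**Figure D5:**
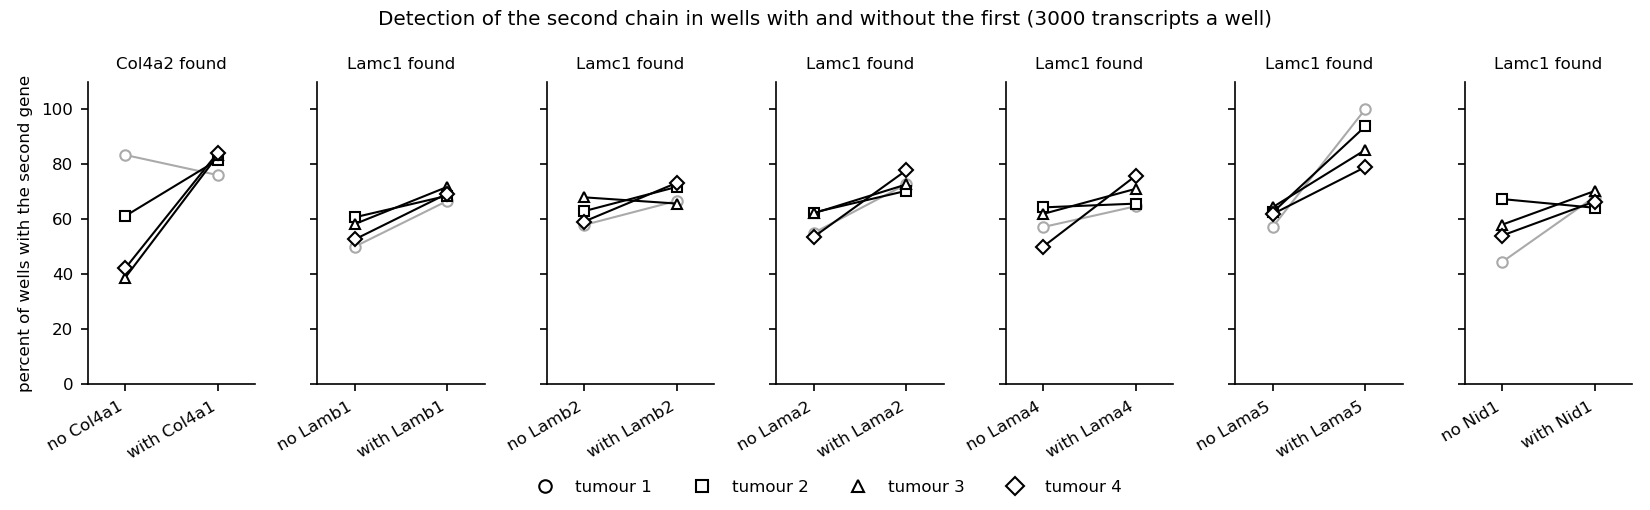
Each line is a tumour and joins the percent of wells in which the second gene was found without (left) and with (right) the first gene, for 7 pairs, in wells thinned to 3000 transcripts. All 4 lines rise for Lamc1 with Lamb1, Lama2, Lama4 and Lama5, while the grey line of tumour 1 falls for Col4a2 with Col4a1.

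Such shares were set beside those in 41 red-cell-rich wells, since red cells should lack these genes. Whether the transcripts there were free RNA or came from a stromal cell in the same well was not tested. In these wells Col4a1 was found in 9.76% and Lamc1 in 9.76% after thinning to 1000 transcripts, against 61.5% and 34.9% of fibroblast-like wells. Without thinning the shares of Col4a1 were 26.8% and 93.3%, at median depths of 2403 and 9796 transcripts. Sparc was found in 85.4% of red-cell-rich wells at 1000 transcripts, against 99.3% of fibroblast-like wells, so its presence in a well says little. The 384 barcodes are the same on each plate by design, and no kept well repeated another plate's counts.

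Within fibroblast-like wells the members varied widely. Col4a1 ranged from 1.70 per 10000 at the 10th percentile through 10 at the median to 28.6 at the 90th, and Col18a1 from 0 through 0.471 to 9.40. Of 105 pairs among the 15 members found in at least 50% of these wells, Col4a1 and Col4a2 had the highest Spearman correlation over wells (0.61, 0.61, 0.77 and 0.63 in tumours 1 to 4). Next came Col18a1 with Lamb1 (0.61, 0.40, 0.45 and 0.38) and Lamb1 with Lamc1 (0.42, 0.41, 0.42 and 0.41). Lamb1 with Lamb2, the alternative beta chains, had 0.02, -0.16, -0.06 and -0.21, and Col18a1 with Fbln1 had the lowest mean, -0.19. These are descriptions over 26, 200, 182 and 148 wells that share a library and differ in depth.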

How the data were processed

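Single cells sorted as cancer-associated fibroblasts from 4 tumours were sequenced by SORT-seq with CEL-Seq2 libraries, per the labels' protocols; reads were mapped with BWA to mm10, per the submitters' processing notes (no versions are named). The authors deposited estimated counts of transcripts per gene and well, made from molecular barcodes with a correction for saturation of 4096 barcodes, as the steps between values show. These were rounded to whole counts here. Plates held 612734 to 3165550 transcripts other than spike-ins. Wells were classed by markers (at least 3 found and 10 per 10000, for smooth muscle 20, for Cajal-like 2 markers; fibroblast-like wells 5 of 9 markers, 100 per 10000 and no other rule); a well that met several rules went to the class where it ranked highest. These minimums were set after the marker distributions were seen, and the members and lists were chosen with earlier results of these data known. Sums of at least 5 wells (16 sums, 8 residual degrees of freedom) were fitted jointly with edgeR 4.0.16 (TMM, filterByExpr, quasi-likelihood, Benjamini-Hochberg) in R 4.3.3, with tumour as a block, because same-numbered sums come from the same tumour and plate; SE is the log2 change divided by the root of F. With 1 plate per tumour, tumour and plate cannot be told apart. The p-values measure how far differences between groups vary over these 4 tumours (3 for telocyte-like and pericyte-like sums), with the estimate of spread shared by all groups. Every member is named; of other lists, the called genes, at most 4 per list and comparison by size of change. Intervals (95%) and floors (3 counts) cover counting error only. Doublets were not called, since each well was sorted to hold 1 cell, and mixed wells were not tested for. Of 39 wells that met the pericyte rule 12 also met another rule, as did 11 of 46 for smooth muscle. Clusters came from scanpy 1.11.5 without the members, and DESeq2 1.42.0 was an alternative. Scripts were tested on simulated data. Promoter windows are from RefSeq.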

Additional observations from a re-analysis of the deposited data

Results flagged for a closer look

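Dixon's 95% value flags about 1 in 20 sets of continuous values by chance, but it always flags a set with 3 values of 0 and 1 above 0. In 56 sets of 4 tumour levels of a member (fibroblast-like or smooth-muscle-like), 8 had a sample far from the other 3 by this value. Of these, 5 rest on 1 or 2 transcripts in the group: Col4a5 in smooth-muscle-like wells of tumour 3 (0.189 per 10000, others 0), Col4a6 in smooth-muscle-like wells of tumour 1 (0.247, others 0), Lama3 in fibroblast-like wells of tumour 3 (0.00900, others 0), Nid2 in smooth-muscle-like wells of tumour 4 (0.251, others 0) and Itga6 in smooth-muscle-like wells of tumour 3 (0.0947, others 0). Agrn in smooth-muscle-like wells stood at 1.26 in tumour 4 and at 0, 0 and 0.189 in the others, from 7 transcripts. Sparc in smooth-muscle-like wells was at 19.8 in tumour 1 and at 37.3 to 40.7 in the others. Fbln1 in fibroblast-like wells was at 3.11 in tumour 2 and at 4.34 to 4.59 in the others.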

How the results depend on the processing

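The 30 fold changes of called members had 402 values over the alternatives: 350 kept direction and call, 51 kept only direction, and 1 turned, Itga1 in telocyte-like wells with Leiden clusters (-0.10). For 12 of the 30 the call held in all alternatives. Without 1 tumour at a time, members lower numbered 0 to 4 in telocyte-like wells (0 without tumour 2), 1 to 3 in pericyte-like wells, and 3 to 7 in smooth-muscle-like against pericyte-like wells, and members higher in smooth-muscle-like wells 1 to 3; the lone remaining sums were assumed to vary like other groups. With no filter on low counts, 5 members were lower in telocyte-like, 9 in smooth-muscle-like, and 8 in smooth-muscle-like against pericyte-like wells, as 15837 genes were tested; the median over all genes then moved to -0.56, -0.47 and -0.62 in telocyte-like, pericyte-like and smooth-muscle-like against fibroblast-like wells. Members lower in pericyte-like wells numbered 2 with DESeq2, with at least 10 wells per sum (1 residual degree of freedom, no telocyte-like sums) and without wells that met several rules; with at least 10 wells per sum 3 were lower in smooth-muscle-like against pericyte-like wells. Hspg2 became the 1 member higher in smooth-muscle-like against pericyte-like wells with no replicate block, with at least 2000 transcripts per well, and with a smooth muscle minimum of 10; under the main fit that count was 0 (edgeR), and 0 with DESeq2. With no replicate block the calls of Col18a1 and Fbln1 in pericyte-like wells and of Fbln1 and Lamb1 in telocyte-like wells were lost, and no other call of a member was. Calls over all genes numbered 303 in telocyte-like, 523 in pericyte-like, 680 in smooth-muscle-like and 406 in smooth-muscle-like against pericyte-like wells and ranged over the alternatives from 158 to 505, 241 to 869, 399 to 980 and 142 to 537; the cause was not tested. The smooth muscle, telocyte and several-rule alternatives were chosen after seeing the data.

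For chain pairing, the mean difference with no thinning was 65.1 points for Col4a1 and Col4a2, 49.8 for Lamb1, 21.5 for Lamb2, 33.3 for Lama2, 33.2 for Lama4 and 46 for Nid1, each with Lamc1, and 13.9 for Nid1 and Nid2 (4.54 when thinned to 3000). Thinned to 1000 it was 18.4 for Lamb1 and 9.33 for Lama5 with Lamc1, and -0.77 for Nid1 and Nid2. In fibroblast-like wells alone it was -2.58 for Lama4 with Lamc1. Depth limits smooth-muscle-like values most: the sum of tumour 2 held 15021 transcripts, so that 1 transcript is 0.665 per 10000.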

Other observations

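The 17 Cajal-like wells, named by Kit, Ano1 and Etv1 of the pacemaker cells of gut muscle, had sums in tumours 3 and 4 only, which were part of the joint fit but entered no comparison. Their Col4a1 stood at 9.86 and 5.26 per 10000 and their Col4a2 at 2.53 and 2.34, below every sum of the other 4 groups. Col4a5 was at 1.13 and 2.04 and Col4a6 at 0.563 and 0.292, so that Col4a5 made up 7.84% and 20.6% of their collagen IV transcripts, from 11 of 85 transcripts. Col4a6 rested on 3 of those 85 transcripts. Lama1 was at 1.13 and 1.46, from 9 of 24 laminin alpha transcripts in 2 wells, and Lamb2 took 66.7% and 78.6% of beta-chain transcripts (19 of 26), against 2.38% to 34.2% in the sums of the other groups. Sparc was at 22 and 27.5. Pericyte markers summed to 3.80 to 15.5 per 10000 in these wells, and their part in these values was not tested.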
